A study of Rattus norvegicus with 56 samples.

Results

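The 7 genes described here are the transcription factors Egr1, Egr2, Egr3 and Egr4 of the early growth response family and Nr4a1, Nr4a2 and Nr4a3 of the NR4A family of orphan nuclear receptors, out of 16575 genes named by a probe of the rat array. They were found through the RefSeq accession that the scanner files give for each probe, and each gene was read from its brightest probe. The array experiment used primary cultures of dissociated hippocampal neurons from E18 Sprague-Dawley rat embryos, and asked how gene expression changes after repetitive transcranial magnetic stimulation (rTMS) of the dish. Stimulated cultures stood on the coil and received 1 Hz stimulation or intermittent theta burst stimulation (iTBS, short high-frequency bursts given in trains) at 15% of the stimulator's maximum output. Sham cultures stayed at a distance of about 20 cm from the coil in the incubator, and untreated cultures serve as a further control at 0 h. Cultures were harvested for RNA directly after the procedure (0 h) or 2, 8, 24 or 48 h later. The 56 arrays form 16 groups of 3 or 4, and 55 were used, because the scanner software marked the grid of replicate 2 of 1 Hz at 2 h as badly placed. That group therefore holds 2 arrays.

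The running numbers in the sample descriptions fall into 4 series, called A, B, C and D here, of 11, 12, 17 and 15 used arrays. Each series holds at most 1 array of an arm at a time, apart from 2 untreated arrays each in series A and C. The labels do not say what the series are, nor whether replicates came from separate dissections, so p-values measure the spread between arrays. The arrays lie on 7 slides, and in all 4 series the slide changes with time. Within a series, no slide holds 0 h arrays together with 24 h or 48 h arrays, so that slide and time cannot be told apart there. Some or all 2 h arrays of each series share a slide with its 0 h arrays, as does the sham array of series B at 8 h. In the main fit the arrays of a group are compared without regard to their series.

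Egr and Nr4a genes are immediate-early genes. They are transcribed within minutes of synaptic activity, growth factors or depolarisation, without new protein synthesis, through transcription factors already present in the cell, such as CREB on cyclic AMP response elements and SRF with its partners on the CArG box. Egr proteins are zinc finger factors that bind GC-rich sites, and Egr1 and Egr3 are needed for lasting synaptic plasticity and memory in the hippocampus. Egr2 is best known for hindbrain patterning and peripheral myelination, and Egr4 is found mainly in neurons. The NR4A receptors act without a known natural ligand. Nr4a1 limits excitatory synapses in active neurons, Nr4a2 is required for midbrain dopamine neurons, and Nr4a3 is the closest relative of both. In bulk cultures, a lower level per cell and fewer cells that express the gene cannot be told apart.

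The proximal promoters of Egr2, Egr4 and Nr4a1, 3 members that rose together in series A, are shown with the letters of known activity elements in capitals. Egr1 rose there as well, and its window is described below by its matches only. RefSeq's promoter table (build GRCr8) held 5 of the 7 members, each as 250 bases before and 50 after the transcription start, written 5′ to 3′ on the gene's strand. The elements searched on both strands were the full cyclic AMP response element TGACGTCA, its short form TGACG (which reads CGTCA on the other strand and lies within the full one), the CArG box, the Egr sites GCGTGGGCG and GCGGGGGCG, and the NR4A element AAAGGTCA.
Egr2, chr20:21054392-21054691, minus strand: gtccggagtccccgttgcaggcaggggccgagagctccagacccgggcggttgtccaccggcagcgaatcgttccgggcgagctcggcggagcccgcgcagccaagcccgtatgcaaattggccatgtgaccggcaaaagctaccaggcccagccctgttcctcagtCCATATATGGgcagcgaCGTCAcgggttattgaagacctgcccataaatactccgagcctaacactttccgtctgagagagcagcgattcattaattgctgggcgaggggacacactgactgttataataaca
Egr4, chr4:119607768-119608067, minus strand: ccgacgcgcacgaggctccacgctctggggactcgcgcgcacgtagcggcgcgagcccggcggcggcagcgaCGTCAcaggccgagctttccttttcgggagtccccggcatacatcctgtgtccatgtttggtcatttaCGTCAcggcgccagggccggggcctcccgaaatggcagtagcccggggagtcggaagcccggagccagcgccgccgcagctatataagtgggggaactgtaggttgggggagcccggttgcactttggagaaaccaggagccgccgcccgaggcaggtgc
Nr4a1, chr7:134259888-134260187, plus strand: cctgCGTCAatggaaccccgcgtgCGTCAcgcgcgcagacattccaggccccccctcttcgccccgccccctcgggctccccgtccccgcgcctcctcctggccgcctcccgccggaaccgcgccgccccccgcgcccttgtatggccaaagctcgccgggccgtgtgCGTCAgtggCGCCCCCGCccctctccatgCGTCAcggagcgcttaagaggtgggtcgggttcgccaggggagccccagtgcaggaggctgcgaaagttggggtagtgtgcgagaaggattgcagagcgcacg

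The short element occurred in all 5 promoters, with 4 matches in Nr4a1, 2 each in Egr1 and Egr4 and 1 each in Egr2 and Nr4a2, while 21.2% of the 33469 promoters in the table hold it. The CArG box occurred once in Egr2, from base -83 to -74, and 2 times in Egr1, and 1.64% of all promoters hold it. Nr4a1 carried 1 Egr site, from base -73 to -65, which 3.20% of promoters hold. None of the 5 windows held the full element (1.83% of promoters) or the NR4A element (1.43%). These matches describe the letters of the windows only.

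Levels are given as log2 processed signal, centred and scaled within each array to a common spread, so that 0 is the mean over probes of that array and a difference of 1 is about 2-fold in signal. Because probes differ in brightness, levels are compared between arrays and not between genes. Egr1, Egr2, Egr4, Nr4a1, Nr4a2 and Nr4a3 were well above background on all 55 arrays. Egr3 was well above background on 25 of the 55, with processed signals from 2.45 to 51.7, so its low values are imprecise. The second probes of Egr2 and Nr4a2 followed the first across the 55 arrays (r = 0.84 and r = 0.92). The second Egr2 probe spanned less, from -1.47 to 1.23 against -1.61 to 3.30, so the sizes of Egr2 changes are those of the brighter probe. The Nr4a1 probe was averaged over 10 spots per array and that of every other member was read from 1 spot, so their SEs are not on equal terms. All 7 members passed the filter on dim probes and were tested among 35694 probes with limma.

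All 10 neuronal markers, among them Map2, Tubb3 and Dcx, were well above background on every array, as the label of the cultures says. All 6 astrocyte markers and all 6 markers of the oligodendrocyte lineage were so too, and 2 of 6 microglial and 1 of 4 measured endothelial and mural markers. Replicate 1 of 1 Hz at 48 h, in series A, correlated least with the other arrays (mean r = 0.961, against 0.968 for the next), with a 75th percentile of signal of 18416 where the others ran from 1896 to 9939. Changes at 48 h in series A and the 1 Hz differences at 48 h are given with and without it.

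The levels of most of the 7 genes differed between the series. In the mean over all arms and times together, Egr2 and Egr4 were lowest in series C, and Egr1 was highest in series D. For Egr1 and Egr2 this order did not hold at every time. At 2 h the mean Egr1 level was 5.30 in A and 3.97 in B against 3.05 in D. The mean Egr2 level at 48 h was 0.21 in B and 0.27 in C. In series A the Egr4 level had a lowest, median and highest value of 2.91, 3.74 and 6.03. In series B these values were 2.75, 3.22 and 4.55, and in series D 3.36, 3.70 and 4.21. In series C they were 0.94, 2.04 and 2.39, so that no array of series C reached the lowest array of another series. Egr2 ran from 0.27 to 3.30 in series A (median 1.14), from -0.05 to 3.07 in B (0.85) and from 0.44 to 1.73 in D (0.81). In series C it ran from -1.61 to 0.42 (-0.72), which overlaps with the low end of series A and B and not with series D.

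The difference between the 4 series passed for 6 of 7 members at an adjusted p below 0.05, in a table where 75.4% of all probes passed. Egr4 (F = 58.0, adjusted p = 5.7e-13) and Egr2 (F = 24.3) had the highest F values, and Egr3 did not pass (adjusted p = 0.49). In series C against A and B, 5 members were lower, where 40.1% of probes passed. The log2 differences were -2.01 ± 0.24 (SE) for Egr2, -1.70 ± 0.15 for Egr4, -0.84 ± 0.16 for Nr4a2, -0.67 ± 0.17 for Nr4a3 and -0.54 ± 0.18 for Nr4a1. Egr1 gave -0.59 ± 0.37 (adjusted p = 0.20). In series D against the other series, Egr1 was higher by 1.44 ± 0.35 and Egr4 by 0.65 ± 0.14, and Nr4a2 was lower (-0.52 ± 0.15), where 53% of probes passed. Series B and A did not differ past the threshold for any member, where 30.4% of probes passed (log2 differences from -0.50 to 0.08, 2 members at an unadjusted p below 0.05).

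Markers of other cells moved with the series. The summed level of the 6 oligodendrocyte lineage markers ran from 6.24 to 7.99 in series D, from 8.81 to 9.76 in A, from 9.55 to 10.38 in B and from 9.62 to 10.86 in C. The mean Mbp level, a myelin protein gene, was 9.03 in series C and 2.57 in series D. The 10 neuronal markers summed to 9.25 to 10.59 in A, 9.40 to 10.12 in B, 9.45 to 10.01 in C and 9.50 to 10.58 in D. Endothelial and mural markers summed to 0.85 to 3.48 in A, 1.69 to 3.87 in B, 3.85 to 4.39 in C and 3.01 to 4.04 in D. Sums were taken before the log, so the brightest probe of a list weighs most. In this list that is Pdgfrb, with a median level of 3.37 against -0.80 for Pecam1, -1.79 for Tek and -4.30 for Cldn5. The 6 microglial markers summed to 4.16 to 5.12 in A, 4.83 to 6.57 in B, 4.53 to 5.80 in C and 2.56 to 4.91 in D. Single microglial markers went different ways. Cx3cr1 and Itgam were well above background on all 55 arrays. The mean Cx3cr1 level was 4.45 in A, 5.59 in B, 4.92 in C and 3.83 in D, and that of Itgam -0.46, 0.39, -0.14 and -0.95. C1qa, well above background on 25 arrays, was at -0.13 in A, -4.40 in B, -4.29 in C and -0.98 in D. Aif1, so on 32 arrays, was at -0.81, -3.58, -3.40 and -1.19. The part of cell composition in the differences between series was not tested.

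**Figure D1:**
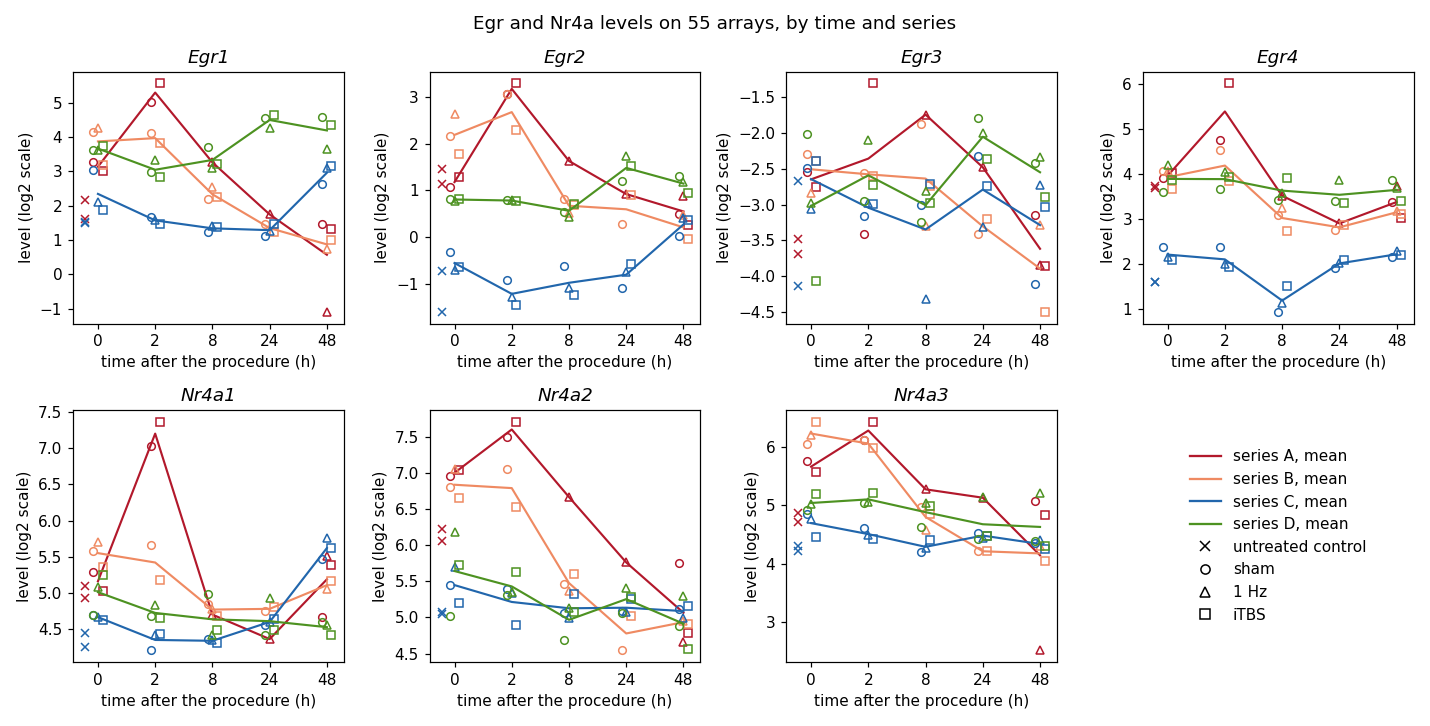
Level of each gene (log2 scale) against the time after the procedure (h, evenly spaced) on the 55 arrays. Colours are the 4 series, lines the mean over sham, 1 Hz and iTBS arrays, and symbols the arms. In series A the levels of Egr1, Egr2, Egr4 and Nr4a1 peak at 2 h in sham and iTBS cultures alike. Series C lies low for Egr4 and, up to 24 h, for Egr2.

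The time course also differed between the series. In series A, Egr1, Egr2, Egr4 and Nr4a1 were higher at 2 h than at 0 h. Nr4a1 stood at 5.29 in the sham and 5.03 in the iTBS array at 0 h, and at 7.03 and 7.37 at 2 h. Egr1 stood at 3.28 (sham) and 3.0 (iTBS) at 0 h, and at 5.03 and 5.57 at 2 h. Egr2 rose from 1.07 and 1.29 to 3.06 and 3.30. Both arms of series A were thus high at 2 h, and the 2 h arrays did not overlap with those at 0 h. No 1 Hz array of series A was used at either time. The sham array lay on slide 1, with the 0 h arrays, and the iTBS array on slide 2, with the later times.

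Within series A, the change from 0 to 2 h averaged over the arms was 2.01 ± 0.20 for Nr4a1 (4.03-fold, adjusted p = 9.4e-07), 2.34 ± 0.42 for Egr1 (5.06-fold), 1.74 ± 0.27 for Egr2 (3.34-fold) and 1.30 ± 0.29 for Egr4 (2.46-fold). These 4 of 7 members passed and all 4 rose, where 7.84% of probes passed. Nr4a2 (0.63 ± 0.27), Nr4a3 (0.72 ± 0.43) and Egr3 (0.56 ± 0.55) did not pass. Without the 48 h array that stood apart, Nr4a3 passed too (0.72 ± 0.21, adjusted p = 0.025), and Nr4a2 did not (adjusted p = 0.12). At 2 h, Nr4a2 stood at 7.49 and 7.71 against at most 7.05 at 0 h, and Nr4a3 at 6.13 and 6.44 against at most 5.76. The Egr3 arrays of the 2 times overlapped. This comparison was chosen after the levels had been seen. The 1 Hz part of the average was estimated from the other series, since series A has no used 1 Hz array at these times. The summed neuronal markers were 10.36 and 10.59 at 2 h against 9.47 to 10.02 at 0 h in the same series. Of the 10, Tubb3 (1.11 ± 0.25) and Slc17a7 (1.06 ± 0.25) passed, and Mbp, among the oligodendrocyte lineage markers, was lower (-1.35 ± 0.43). The 4 measured endothelial and mural markers summed to 2.41 and 3.48 at 2 h against 1.15 to 1.94 at 0 h. Pdgfrb, a pericyte receptor that weighs most in this sum, was higher (1.72 ± 0.31). The part of these shifts in the change of the members was not tested. No member passed from 0 to 2 h in series B (0.0140% of probes), C (0.00280%) or D (0%), with changes from -0.19 to 0.48 in B, -0.85 to -0.06 in C and -0.62 to 0.43 in D. At an unadjusted p below 0.05 there were 0, 2 and 0 members in these series.

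In series B the genes started high and fell. Nr4a2 stood at 6.80 (sham), 7.05 (1 Hz) and 6.66 (iTBS) at 0 h and at 7.06 (sham) and 6.52 (iTBS) at 2 h. At 8 h it was at 5.46, 5.36 and 5.61, and at 48 h at 4.96 (1 Hz) and 4.92 (iTBS). The 3 arms fell together, and no array from 8 h on reached the lowest of the first 2 times. Egr1 followed the same course, from 4.16, 4.27 and 3.20 at 0 h in sham, 1 Hz and iTBS to 2.21, 2.54 and 2.26 at 8 h, and to 0.74 (1 Hz) and 1.01 (iTBS) at 48 h. Nr4a3 went from 6.06, 6.21 and 6.43 to 4.96, 4.58 and 4.86 at 8 h and to 4.31 (1 Hz) and 4.04 (iTBS) at 48 h.

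At 8 h in series B, 6 of 7 members were lower than at 0 h, where 8.56% of probes passed, from -1.54 ± 0.35 for Egr1 and -1.52 ± 0.23 for Egr2 to -0.78 ± 0.17 for Nr4a1. Without replicate 1 of 1 Hz at 0 h, 3 members passed. At 24 h the same number was lower (25.3% of probes), and at 48 h all 7 were (32.1% of probes). The changes at 48 h were -2.84 ± 0.40 for Egr1 (7.18-fold), -2.0 ± 0.26 for Egr2 (4.01-fold), -1.94 ± 0.42 for Nr4a3, -1.79 ± 0.26 for Nr4a2, -1.42 ± 0.53 for Egr3, -0.75 ± 0.28 for Egr4 and -0.54 ± 0.19 for Nr4a1. The count fell to 4 without replicate 1 of 1 Hz at 0 h or replicate 1 of sham at 0 h, and to 3 without replicate 2 of iTBS at 48 h. Markers of other cells moved in series B as well. Astrocyte markers summed to 11.52 and 11.75 at 48 h against 10.45 to 10.92 at 0 h (5 of 6 rose). Microglial markers summed to 6.13 and 6.57 against 4.83 to 5.65, oligodendrocyte lineage markers to 10.12 and 10.33 against 9.55 to 9.79, and endothelial and mural markers to 3.82 and 3.87 against 2.89 to 3.17. The sums at 48 h thus did not overlap with those at 0 h for any of these lists. At 8 h the endothelial and mural sum stood lower, at 1.69 to 1.87, with Pecam1 at -1.35 ± 0.26 and Pdgfrb at -1.30 ± 0.25. The part of these markers in the courses of the members was not tested.

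In series A, 5 members were lower at 48 h than at 0 h (4 without the array that stood apart), and Nr4a1 and Egr3 did not pass. Nr4a2 stood at 6.96 (sham) and 7.05 (iTBS) at 0 h and at 5.75, 4.67 and 4.78 in sham, 1 Hz and iTBS at 48 h. Egr1 was at 1.48, -1.11 and 1.34 at 48 h. Here the 1 Hz value is that of the array that correlated least with the others. For both genes, every array of series A at 48 h lay below every array at 0 h.

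The test called 5 of 7 members lower at 48 h in series A, where 21.0% of probes passed, with -2.46 ± 0.37 for Egr1, -1.91 ± 0.23 for Nr4a2, -1.40 ± 0.37 for Nr4a3, -0.87 ± 0.24 for Egr2 and -0.73 ± 0.25 for Egr4. Without the array that stood apart, Nr4a3 was at -0.44 ± 0.21 (adjusted p = 0.18) and Egr1 at -1.72 ± 0.30, with Nr4a2 at -1.67, Egr2 at -0.97 and Egr4 at -0.90, and without replicate 2 of sham at 0 h 3 members passed. Nr4a1 was at -0.05 ± 0.17. At 24 h, 3 members passed and were lower (4.73% of probes), a count that rests on a single series A array of that time and fell to 1 or 0 without replicate 3 of 1 Hz at 24 h, replicate 3 of iTBS at 24 h, replicate 3 of iTBS at 0 h or replicate 2 of sham at 0 h. At 8 h none passed (6.36% of probes, 1 member at an unadjusted p below 0.05), and this comparison too rests on a single series A array, of 1 Hz, set against 0 h arrays of the other arms. Of the 6 astrocyte markers, 4 rose at 48 h in series A. Endothelial and mural markers summed to 2.39 to 3.40 at 48 h against 1.15 to 1.94 at 0 h, while the sums of the other lists overlapped. The part of these markers was not tested.

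Series C and D took other courses. In series C, Nr4a1 stood at 4.70, 4.66 and 4.63 (sham, 1 Hz, iTBS) at 0 h and at 5.47, 5.76 and 5.62 at 48 h. Egr2 went from -0.31, -0.71 and -0.64 to 0.03, 0.42 and 0.37. Both were thus higher at 48 h in every arm.

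These 2 of 7 members rose at 48 h in series C, where 7.92% of probes passed, by 0.98 ± 0.16 for Nr4a1 and 0.95 ± 0.22 for Egr2. The count was 1 without replicate 2 of 1 Hz at 0 h or replicate 3 of iTBS at 48 h. Of the 6 astrocyte markers, 3 rose and 1 fell, Aldh1l1 at -0.91 ± 0.19. Oligodendrocyte lineage markers summed to 9.62 to 9.78 at 48 h against 10.16 to 10.59 at 0 h, and neuronal markers to 9.45 to 9.56 against 9.62 to 10.01. The sums of the astrocyte, microglial, and endothelial and mural lists overlapped between these times. The part of these markers in the rise was not tested. No member passed at 8 h (0.0953% of probes, 2 at an unadjusted p below 0.05) or 24 h (0.925%, 1 at an unadjusted p below 0.05). At 8 h, 1 member passed without replicate 3 of iTBS or of sham at 2 h, and at 24 h 1 passed without the 1 Hz array that stood apart.

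In series D, Egr1 stood at 3.62, 3.63 and 3.76 at 0 h, at 4.57, 4.28 and 4.66 at 24 h and at 4.58, 3.65 and 4.36 at 48 h (sham, 1 Hz, iTBS). Its change at 24 h, 0.83 ± 0.35, did not pass. Egr2 rose at 24 h by 0.68 ± 0.23, the only member to pass (20.6% of probes). That call was lost on leaving out any of 5 arrays of series D, while 2 members passed without replicate 4 of sham at 0 h or without the 1 Hz array that stood apart. At 48 h, Nr4a2 (-0.73 ± 0.22) and Nr4a1 (-0.48 ± 0.17) were lower, where 22.9% of probes passed, and neither passed without replicate 3 of 1 Hz at 0 h, replicate 4 of iTBS at 0 h or replicate 4 of iTBS at 48 h. Without replicate 4 of 1 Hz at 48 h or replicate 3 of sham at 48 h, 1 passed. The 10 neuronal markers also stood lower, with sums of 9.50 to 9.63 at 48 h against 10.13 to 10.58 at 0 h, Tubb3 at -1.44 ± 0.21 and Dcx at -0.93 ± 0.11, and 4 of 6 astrocyte markers rose. Their part was not tested. No member passed at 8 h (0.510% of probes, 2 at an unadjusted p below 0.05), and 1 did without replicate 4 of sham at 0 h.

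**Figure D2:**
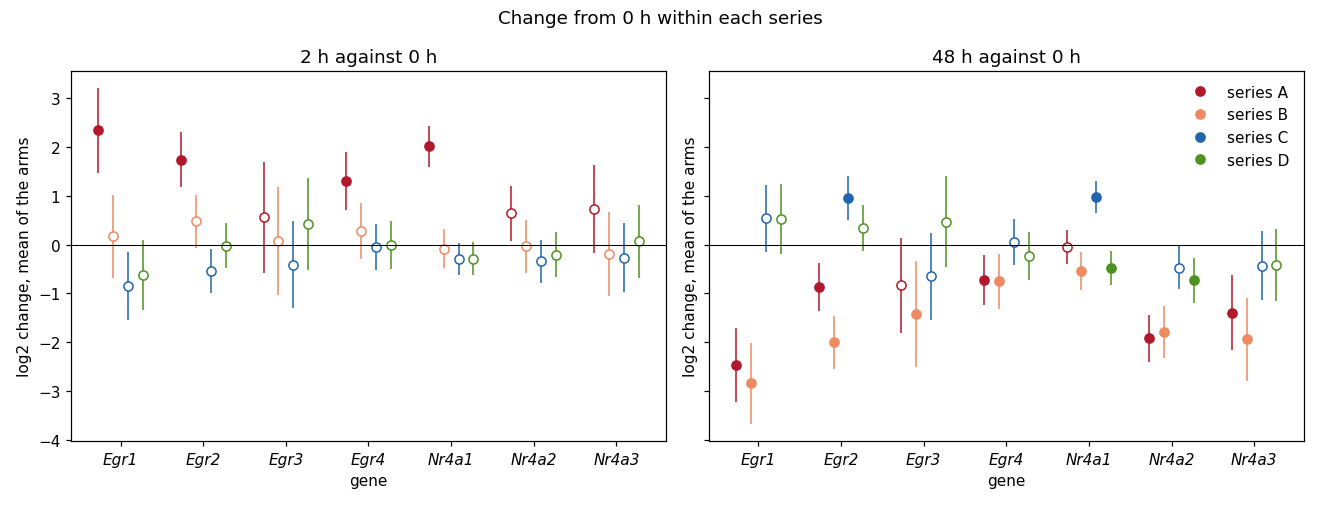
Change in level (log2) from 0 h to 2 h (left) and to 48 h (right) within each series, averaged over the arms, with 95% confidence intervals. Filled points passed an adjusted p of 0.05. At 48 h all 7 genes are lower in series B, while Nr4a1 and Egr2 are higher in series C.

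A test of the difference itself, the interaction of series and time, passed for 5 of 7 members, where 39.4% of probes passed. These were Egr2 (adjusted p = 6.6e-08), Nr4a1 (9.7e-08), Egr1 (1.0e-07), Nr4a2 (1.0e-04) and Egr4 (0.0015). Nr4a3 had an adjusted p of 0.059, and of 3.9e-05 without the 1 Hz array that stood apart. Egr3 had 0.098 (0.10 without it).

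Averaged over arms and series, only Nr4a2 (-1.15 ± 0.29, adjusted p = 0.0087) and Nr4a3 (-1.02 ± 0.26, adjusted p = 0.0092) were lower at 48 h than at 0 h among the 7, where 10.8% of probes passed. None passed at 24 h (3.83% of probes, 2 members at an unadjusted p below 0.05), at 8 h (0.219%, 2 members) or at 2 h (0%, 0 members). With the series as a block, Nr4a2 and Nr4a3 were lower at 24 h (14% of probes) and at 48 h (27%), and Nr4a2 (-0.79 ± 0.22) and Egr4 (-0.70 ± 0.20) at 8 h (2.37%). With the slide as a block and no series in the fit, 0 members passed at any of these times. With the replicate number as a block 4 member tests passed, and without replicate 1 of 1 Hz at 48 h or replicate 2 of iTBS at 0 h also 4. The test over the 5 times among sham arrays alone called 0 of 7 members (0.0784% of probes), with 1 member at an unadjusted p below 0.05 and 3 with the series as a block.

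Neither stimulation moved any of the 7 genes past the threshold at any time. In 1 Hz against sham, 0 of 7 members passed at 0 h (0% of probes), 2 h (0.00560%), 8 h (0.00280%), 24 h (0%) and 48 h (0%), and in the mean of the times (0%). In iTBS against sham, 0 passed at 0 h (0%), 2 h (0%), 8 h (0.00560%), 24 h (0%), 48 h (0%) and in the mean of the times (0%). In iTBS against 1 Hz, 0 passed at 0 h (0%), 2 h (0.00560%), 8 h (0.00280%), 24 h (0%) and 48 h (0%). At an unadjusted p below 0.05 the main fit held 0 members in all of these limma comparisons.

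The series can be held constant by taking each stimulated array with the sham array of its own series and time. At 2 h, Nr4a1 in iTBS and sham was 7.37 and 7.03 in series A, 5.18 and 5.66 in B, 4.43 and 4.20 in C, and 4.66 and 4.68 in D. At 0 h the same pairs were 5.03 and 5.29, 5.35 and 5.59, 4.63 and 4.70, and 5.25 and 4.70. The sign of the difference changed from series to series. Over the 17 pairs of iTBS and sham, Nr4a1 was higher in 8 and lower in 9 (median -0.02), Egr1 higher in 7 and lower in 10 (median -0.14), and Nr4a2 higher in 11 and lower in 6 (median 0.15). Over the 13 pairs of 1 Hz and sham, Nr4a1 was higher in 8 (median 0.12), Egr1 in 7 (0.01), Egr4 in 9 (0.14), Nr4a2 in 7 (0.04) and Nr4a3 in 8 (0.04), while Egr2 was lower in 8 (-0.04) and Egr3 in 8 (-0.55). Over the 14 pairs of iTBS and 1 Hz, Egr4 was lower in 11 (median -0.09), and the other 6 members were lower in 6 to 9.

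**Figure D3:**
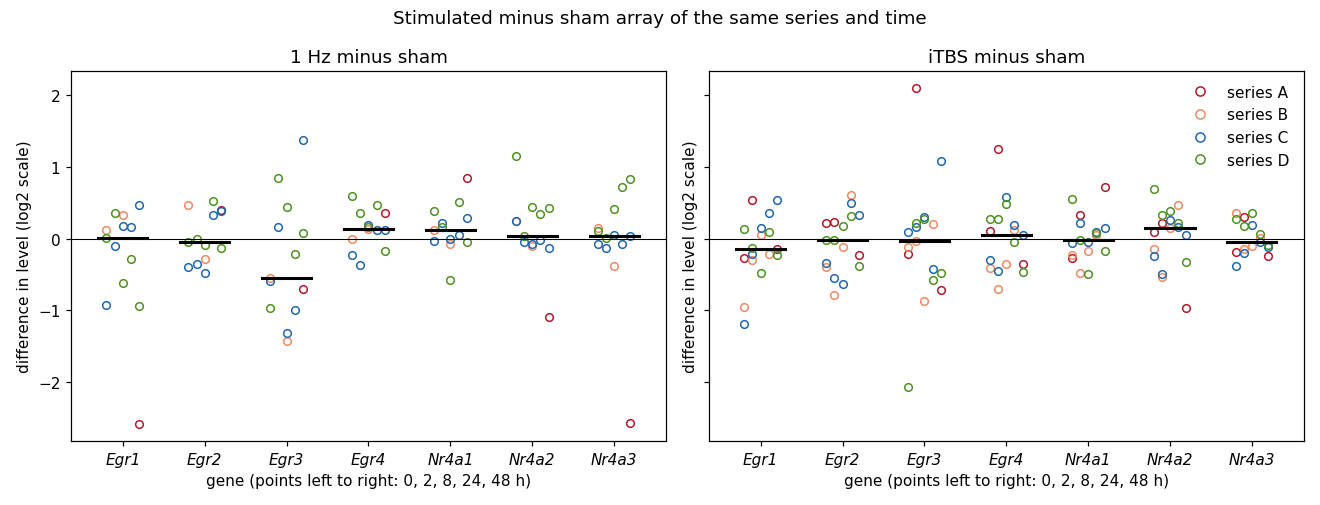
Level of the 1 Hz (left) or iTBS (right) array minus that of the sham array of the same series and time (log2 scale), with colours for the series and a bar for the median. The differences lie on both sides of 0 for each gene, and the lowest 1 Hz values of Egr1 (-2.58) and Nr4a3 (-2.57) come from series A at 48 h.

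In a fit with a term for each series at each time, which sets arrays of the same series and time against each other, the mean change over the 5 times stayed small. For iTBS against sham it was 0.02 for Nr4a1 (95% interval -0.12 to 0.16), -0.05 for Egr2 (-0.24 to 0.15), 0.02 for Egr4 (-0.18 to 0.23), 0.03 for Nr4a2 (-0.17 to 0.22), 0.00 for Nr4a3 (-0.32 to 0.31), -0.13 for Egr1 (-0.43 to 0.17) and -0.10 for Egr3 (-0.49 to 0.30). For 1 Hz against sham the means ran from -0.23 for Egr1 (-0.57 to 0.11) to 0.16 for Egr4 (-0.07 to 0.39), with Egr1 at -0.10 (-0.35 to 0.15) without the array that stood apart. Without this term the 1 Hz difference at 2 h was -1.74 ± 1.06 for Egr2, and with it -0.18 ± 0.26, since the 1 Hz arrays of that time come from series C and D only.

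Single times in that fit held 5 member differences at an unadjusted p below 0.05, and none passed adjustment. Of all 35694 probes, 5133 were below that value in 1 Hz against sham at 48 h and 5879 in iTBS against 1 Hz at 48 h. There were 1161 in 1 Hz against sham at 0 h and 606 in iTBS against sham at 24 h. Egr1 was at -0.92 ± 0.34 in 1 Hz against sham at 48 h (adjusted p = 0.24), and its 1 Hz array minus the sham array was -2.58 in series A, 0.47 in C and -0.93 in D. The series A value comes from the array that stood apart, and without it the difference was -0.27 ± 0.28 (adjusted p = 0.94). In iTBS against 1 Hz at 48 h, Egr1 was at 0.87 ± 0.30 (adjusted p = 0.17), and at 0.32 ± 0.25 without that array (adjusted p = 0.58). The remaining differences were Nr4a1 in 1 Hz at 48 h (0.34 ± 0.16, and 0.22 ± 0.18 without that array), Nr4a2 in 1 Hz at 0 h (0.49 ± 0.21) and Egr2 in iTBS at 24 h (0.48 ± 0.23). Without the array, Nr4a3 in iTBS against 1 Hz at 48 h was at -0.47 ± 0.17 (adjusted p = 0.27) and Egr1 in iTBS against sham at 0 h at -0.57 ± 0.22 (adjusted p = 0.17), and 0 members passed in any of these comparisons.

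Most members stood lower in the 2 untreated arrays each of series A and C than in the 1 sham array of their series at 0 h. In series A, Egr1 was at 1.60 and 2.18 in the untreated arrays and at 3.28 in the sham array, and in series C at 1.49 and 1.52 against 3.05. Nr4a3 was at 4.72 and 4.88 against 5.76, and at 4.22 and 4.31 against 4.85. Nr4a2 was at 6.06 and 6.22 against 6.96, and at 5.05 and 5.07 against 5.45. Both untreated arrays lay below the sham array in both series for 6 of 7 members, the exception being Egr2 in series A (1.14 and 1.45 against 1.07). The share of all probes with this order was not counted, and each series holds only 1 sham array at 0 h. All these arrays lay on slide 1 (series A) or slide 5 (series C).

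The test of untreated against sham at 0 h called 0 of 7 members (0.00280% of probes), with 1 member, Egr3, at an unadjusted p below 0.05. Egr1 was at -1.83 ± 0.95 and Egr3 at -1.16 ± 0.46. With a term for each series at each time, Egr1 was at -1.30 ± 0.33 (adjusted p = 0.14), Egr3 at -1.19 ± 0.43 (adjusted p = 0.44) and Nr4a2 at -0.47 ± 0.21 (adjusted p = 0.64). The sham arrays of series B and D have no untreated partner.

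**Figure D4:**
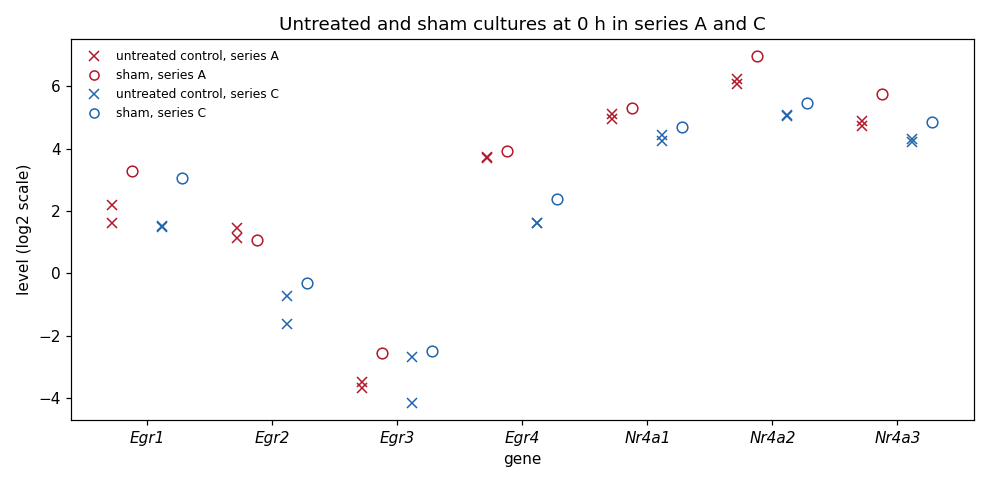
Level (log2 scale) of each gene at 0 h in the untreated (crosses) and sham (circles) arrays of series A and C. The crosses lie below the circle of their series, except for Egr2 in series A.

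Other immediate-early transcription factors were counted in the same comparisons. Of 17 such genes, such as Fos, Jun, Npas4 and Atf3, 8 rose and none fell at 2 h in series A, with a median change of 0.86 against -0.02 over all probes. Over all probes 7.84% passed there. At 48 h, 10 fell in series A (median -1.01, 21.0% of all probes passed) and 13 in series B (-1.26, 32.1%), while 12 rose in series C (1.03, 7.92%). In series D, 5 of 17 rose (0.38), a share near the 22.9% of all probes. Npas4, an activity-dependent factor of neurons, rose by 2.63 ± 0.75 at 2 h in series A and Fosb by 2.37 ± 0.51. Atf3, a stress-inducible factor, was at -4.61 ± 0.40 at 48 h in series B and at 3.70 ± 0.33 in series C. No gene of the 17 passed at 2 h in series B, C or D. In series C against A and B, 12 of the 17 were lower and none higher, where 40.1% of all probes passed. Fosl1 was at -4.83 ± 0.56 there.

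Immediate-early effectors are the genes that act at synapses or feed back on signalling. Of 20 such genes, 9 rose and none fell at 2 h in series A (7.84% of all probes passed). At 48 h, 13 fell and 2 rose in series A (21.0% of all probes passed), and 11 fell and 1 rose in series B (32.1%). In series C, 2 fell and 1 rose (7.92%), and in series D 3 fell and 2 rose (22.9%), with medians of -0.07 and -0.10. Dusp1, a phosphatase that switches off MAP kinases, rose by 1.91 ± 0.25 at 2 h in series A, and Ccn1, a secreted matrix protein, was at -4.57 ± 0.25 at 48 h in series B. In series C against A and B, 16 of 20 were lower and 2 higher, where 40.1% of all probes passed. Arc, a regulator of AMPA receptor endocytosis, was at -2.76 ± 0.13 there.

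Among 5 partners of these factors, Nab2, a corepressor that Egr proteins themselves induce, rose by 1.15 ± 0.26 at 2 h in series A, was at -1.61 ± 0.25 at 48 h in series B and at -1.09 ± 0.18 in series C against A and B. Rxra, a nuclear receptor that pairs with Nr4a1 and Nr4a2, was higher at 48 h in series A (0.86 ± 0.23) and B (0.92 ± 0.26). Of 7 genes reported as Egr targets, some of which are also in the lists above, 2 rose at 2 h in series A (Arc and Nab2), where 7.84% of all probes passed, and at 48 h in series B 2 fell and 2 rose, where 32.1% did. Of 7 genes reported as Nr4a targets, Th, the rate-limiting enzyme of dopamine synthesis, rose by 1.85 ± 0.52 and Spp1, which encodes osteopontin, fell (-2.13 ± 0.56) among 3 that passed at 2 h in series A. Of 15 upstream factors, such as Creb1 and Srf, 11 were tested. Among these 1 rose and 2 fell at 2 h in series A, where 7.84% of all probes passed.

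The 7 genes were compared with each other and with all others by the correlation of levels over the 55 arrays after the mean of each series was subtracted, given as a description, since the arrays share time, slide and series. Over the 21 pairs of members, r ran from 0.07 (Egr3 with Nr4a1) to 0.88 (Nr4a2 with Nr4a3), with a median of 0.61. For 7 pairs r was above 0 in all 4 series. Egr1 and Nr4a3 had r = 0.93 in series A and in series B, 0.24 in C and -0.74 in D.

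Among 11304 genes well above background on at least 50 arrays, Per1, a clock gene that CREB also induces, was most like the mean of the 6 brighter members (r = 0.91, from 0.72 to 0.96 within series). Klf5 (0.89), Ccn1 (0.87), Gadd45b (0.85) and Klf4 (0.85) followed. For single members the closest genes were Sesn2 and Per1 for Egr1 (0.85 and 0.82), Fos and Klf4 for Egr2 (0.88 and 0.88), and Krt18 and Tfr2 for Egr3 (0.65 and 0.65). Per1 and Klf5 were closest to Egr4 (0.81 and 0.81), and Jdp2 and Csrnp1 to Nr4a1 (0.84 and 0.82). Ccn1 and Btaf1 were closest to Nr4a2 (0.92 and 0.89), and Slc6a6 and Adcyap1, the gene of the neuropeptide PACAP, to Nr4a3 (0.89 and 0.89). Fos kept r between 0.85 and 0.92 with Egr2 in every series, whereas Csrnp1 and Nr4a1 ran from -0.24 in series D to 0.93 in series A.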

How the data were processed

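The files are Agilent Feature Extraction 12.0.3.1 outputs of 1-colour rat arrays that name build rn4, and a series matrix. The authors deposited background-corrected processed signals (intensity), which were taken to log2 here, and z-scores per array (a score), which were used as an alternative. The deposited z-scores matched z-scores of the log10 signal over all spots within 0.005. The study's methods name the z-score transformation. Here log2 signals of noncontrol spots were averaged per probe, z-scored within each array and multiplied by the median SD (4.06). Tests ran on the 35694 probes that the software marked well above background on 3 or more arrays, and 420 without a value on every array were left out. Background subtraction makes low signals noisy, and the number of arrays limits the precision.

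Groups were compared with limma 3.58.1 (R 4.3.3) without a block, with Benjamini-Hochberg adjustment over all probes (39 residual degrees of freedom), and tables were made in Python with pandas and numpy. Changes within a series came from a fit with terms for each series at each time and each arm at each time (24 residual degrees of freedom). The arm terms were shared by the series. An arm that a series lacks at a time thus entered its average through the other series. The fits were tested on simulated data. Gene names came from RefSeq's GRCr8 table (21102 of 45598 probes). The 7 genes were named whatever their result, with the 2 most changed passing genes of each list and the most correlated genes by the rule given above. Members, lists and comparisons were chosen with earlier results of these data known.

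Alternatives were other scalings, background corrections and filters, blocks for series, slide and replicate number, and leaving out each array. The within-series and interaction tests and their alternatives were added after the data had been seen. The files used here hold median signals, so normexp (offset 50) was run on these and not on mean signals. Single values of 1 marker gene are not reported here.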

Additional observations from a re-analysis of the deposited data

Results flagged for a closer look

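The change over time differed between the series for 5 members by the interaction of series and time, with F of 12 terms at 21.0 for Egr2, 20.1 for Nr4a1, 20.0 for Egr1, 8.15 for Nr4a2 and 5.35 for Egr4. Slides and cell markers move with series and time, and their part was not tested.

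Of 56 sets of 4 arrays (7 genes in the groups of 4), 2 held an array far from the other 3, where chance gives about 1 in 20. Egr1 in untreated replicate 2 of series A was at 2.18, and Egr4 in 1 Hz replicate 3 of series C at 8 h was at 1.13. The sets pool the series, and the iTBS and sham arrays of series C at 8 h had Egr4 at 1.52 and 0.94.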

How the results depend on the processing

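With the badly gridded array, 5 of 42 member tests passed in 1 Hz against sham and 5 of 35 in iTBS against 1 Hz, where 0 passed without it, and Egr3 in iTBS against 1 Hz at 2 h was reversed at -3.44. With it, 7 of 28 tests of the series passed against 14, and 0 of 28 of the times over the arms against 2. The times over the arms gave 6 calls with the series as a block, 4 with the replicate number as a block and 0 with the slide as a block, which is nearly tied to time within each series. Leaving out each array in turn gave 2 to 4 calls there, with 4 without replicate 1 of 1 Hz at 48 h or replicate 2 of iTBS at 0 h. It gave 14 to 16 for the series and 30 to 38 within series, where all arrays gave 36. Replicate numbers of the titles were not taken as pairs, since deviations of arrays with the same number correlated with a median of 0.14 (from -0.40 to 0.72). With them as a block, 11 tests of the series passed against 14, and the counts of the stimulation, untreated and sham comparisons stayed at 0. All other counts, most of them 0, stayed within 1.5 times of the main one in every alternative, and the cause of the changes was not tested.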
